A study of Rattus norvegicus with 8 samples.

Results

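The 10 genes described here encode the CD3 chains of the T cell receptor complex (Cd3d, Cd3e and Cd3g), the adhesion receptor Cd2, the coreceptors Cd4, Cd8a and Cd8b, and the cytotoxic proteins Gzmb, Prf1 and Nkg7. They were taken by gene name from 32623 rat Ensembl genes counted by bulk RNA sequencing, and all 10 names were found. The tissue was the epigastric vein joined to the femoral artery in an arteriovenous fistula (AVF) of Sprague Dawley rats, and it was collected at 21 days. In 4 rats (BAPN replicates 1 to 4) the vein was wrapped at surgery in a nanofiber scaffold loaded with β-aminopropionitrile (BAPN), an inhibitor of the lysyl oxidases, and in 4 rats (Vehicle replicates 1 to 4) in a scaffold of the same polymers without BAPN. BAPN replicates 1 to 3 and Vehicle replicates 1 and 2 were female, and BAPN replicate 4 and Vehicle replicates 3 and 4 were male. All animals had the fistula and a scaffold, their age was not given in the sources used here, and no unoperated vein was analysed here.

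T cells recognize antigen through a receptor whose signal is passed into the cell by the CD3 chains. CD4 and CD8 bind the antigen-presenting molecule beside that receptor, and they divide T cells into helper and cytotoxic kinds. Cytotoxic T cells and natural killer (NK) cells kill by releasing perforin, the product of Prf1, together with granzymes from granules. In the rat, macrophages also carry CD4 and NK cells carry the CD8 α chain, so in a vessel wall the CD3 chains mark T cells more closely than Cd4 or Cd8a do. Bulk RNA gives 1 value per vein, and fewer cells of a type and less RNA per cell cannot be told apart.

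The promoters of Cd2 and Cd8a are shown because these genes passed the test between the groups, and that of Cd3e because it had the largest fold change among the 10 genes. The sequences are the 250 bases before the RefSeq start of each gene in assembly GRCr8, 5′ to 3′ on the strand of the gene, at chr2:191412660-191412909 (minus strand) for Cd2, chr4:104923866-104924115 (plus strand) for Cd8a and chr8:54211771-54212020 (minus strand) for Cd3e. Capitals mark a match, on either strand, to the core letters bound by RUNX factors (TGTGGT), by ETS factors (AGGAAG) or the TATA box (TATAAA), which do not overlap here.
Cd2: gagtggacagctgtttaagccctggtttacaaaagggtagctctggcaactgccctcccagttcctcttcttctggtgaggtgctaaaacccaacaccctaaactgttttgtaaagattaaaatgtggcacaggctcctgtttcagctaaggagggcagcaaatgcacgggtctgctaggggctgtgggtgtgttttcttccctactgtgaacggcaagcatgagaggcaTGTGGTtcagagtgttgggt
Cd8a: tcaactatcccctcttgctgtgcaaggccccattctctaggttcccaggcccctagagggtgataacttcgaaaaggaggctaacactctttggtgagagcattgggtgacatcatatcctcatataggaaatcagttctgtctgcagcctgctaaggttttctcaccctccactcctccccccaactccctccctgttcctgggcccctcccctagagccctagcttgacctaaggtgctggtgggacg
Cd3e: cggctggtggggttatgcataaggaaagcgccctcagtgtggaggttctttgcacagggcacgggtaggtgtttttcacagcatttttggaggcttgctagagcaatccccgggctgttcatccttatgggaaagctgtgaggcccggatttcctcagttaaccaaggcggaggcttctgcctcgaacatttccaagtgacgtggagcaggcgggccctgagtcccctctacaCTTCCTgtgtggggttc
Cd2 held a RUNX match that began 20 bases before the start, Cd3e held an ETS match that began 17 bases before it, and the Cd8a window held no match. Promoters were matched for 8 of the 10 genes, among which 4 held the RUNX letters, 5 the ETS letters and 1, Gzmb, the TATA box. Of all 33469 promoters in the table, 14.5%, 29.5% and 12.9% held them. A match is a description of letters and not of binding.

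Library size differed with the group. The BAPN libraries held 45039451 to 52241007 counts and the Vehicle libraries 19548203 to 22442050, so the effect of sequencing depth and that of the scaffold cannot be told apart by design. Counts were scaled by library total and TMM factor to CPM, a common unit of library size. The groups were compared by the quasi-likelihood test of edgeR, and p-values were adjusted by the Benjamini-Hochberg method (FDR) over the 11682 genes that had a base mean of at least 100. Fold changes are of BAPN over Vehicle on the log2 scale, with a standard error (SE) from limma-voom, and group values are means ± SD over 4 rats. In this comparison 16.8% of all tested genes were called at an FDR below 0.05, and 7.5% were called higher with BAPN. Of the 11682 tested genes, 1081 were called lower with BAPN. CPM values are not corrected for gene length, so levels are compared between libraries and not between genes.

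Of the 10 genes 9 were tested, and edgeR called 2 of them, Cd2 and Cd8a, both higher with BAPN. The log2 fold change was above 0 for 8 of the 9, all but Cd4, and its median was 1.02, beside a median of 0.02 over all tested genes, of which 6028 lay above 0. The 4 BAPN libraries lay above the 4 Vehicle libraries for Cd2 and Cd8a alone among the 10, and 12.7% of all tested genes had that arrangement. DESeq2 called 3 of the 9 higher, Cd3e beside Cd2 and Cd8a, and it called 12.3% of all tested genes higher.

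**Figure D1:**
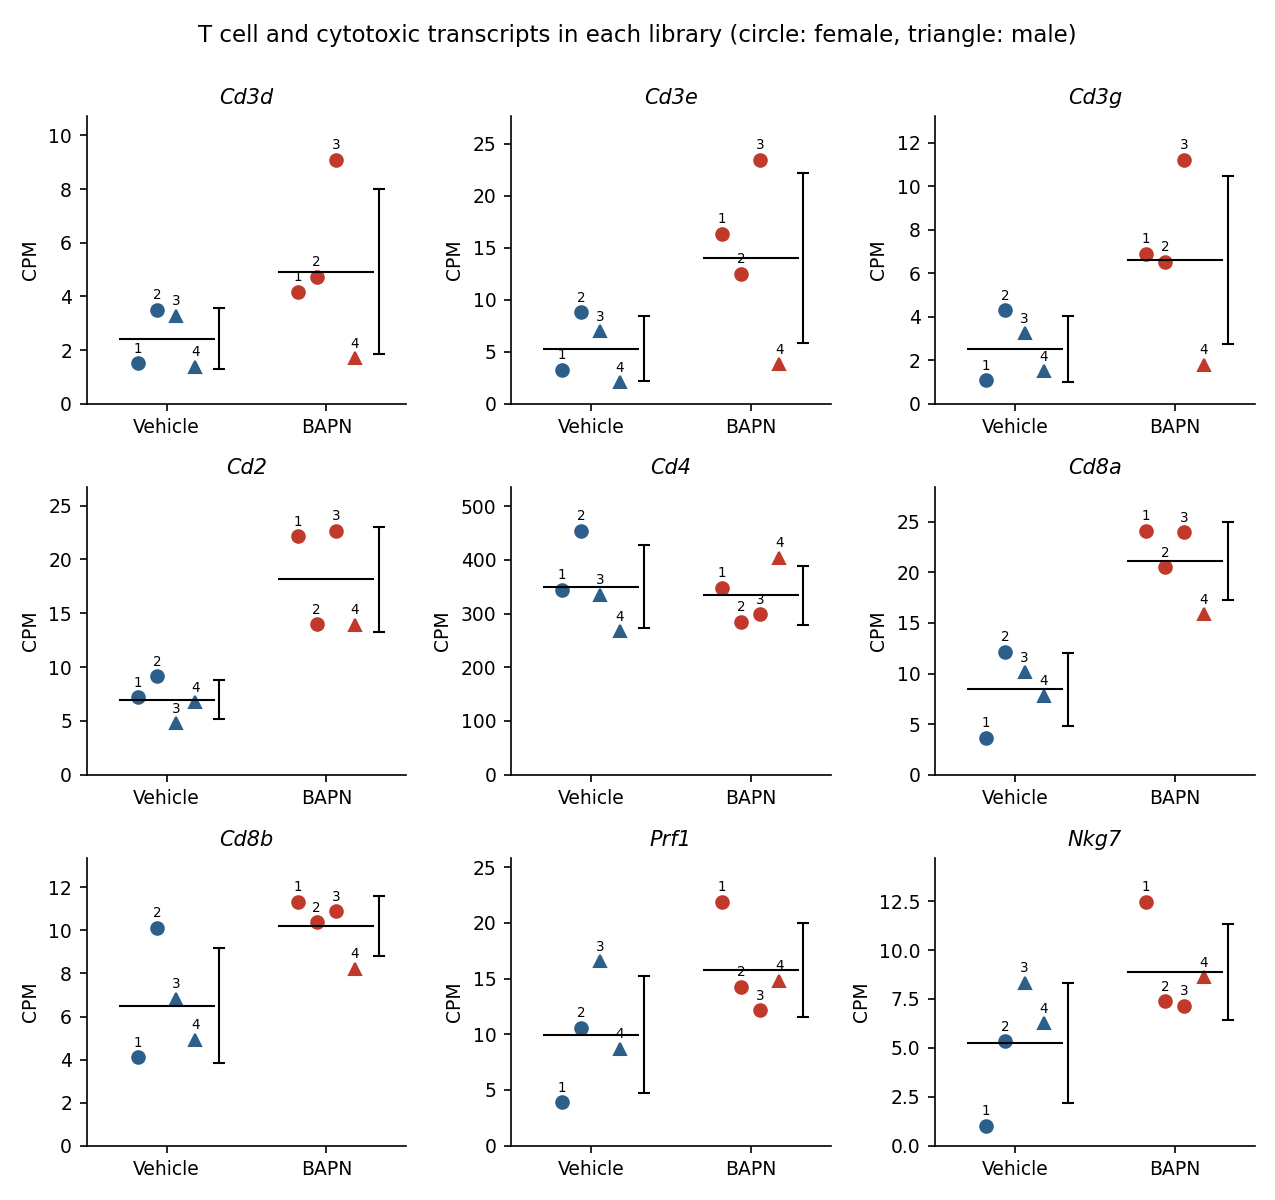
CPM of the 9 tested genes in each library, with Vehicle in blue and BAPN in red, females as circles and males as triangles, the replicate number above each point, the group mean as a line and the SD as a bar. Cd2 and Cd8a are the genes whose groups do not overlap, and BAPN replicate 4 is near the Vehicle libraries for Cd3d, Cd3e and Cd3g.

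The CD3 chains link the antigen receptor to the kinases of the cell. Cd3e (ENSRNOG00000016069) was at 16.3, 12.5, 23.4 and 3.82 CPM in BAPN replicates 1 to 4 and at 3.28, 8.80, 6.99 and 2.05 CPM in Vehicle replicates 1 to 4. BAPN replicates 1 to 3 were above every Vehicle library, and BAPN replicate 4 was inside the Vehicle range. The group means were 14.0 ± 8.17 and 5.28 ± 3.15 CPM (SD, n = 4 each), a log2 fold change of 1.41 (SE 0.80) that did not pass the edgeR test (FDR = 0.113; exact two-sided permutation test, p = 0.114). DESeq2 gave Cd3e an FDR of 0.0432, and of 0.194 with sex as a covariate.

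Cd3g (ENSRNOG00000015945) was at 6.89, 6.53, 11.2 and 1.80 CPM with BAPN and at 1.08, 4.30, 3.24 and 1.48 CPM with Vehicle, with the same BAPN library low. Its log2 fold change was 1.39 (SE 0.79; edgeR FDR = 0.121; exact permutation p = 0.143). Cd3d (ENSRNOG00000015994) was at 4.17, 4.73, 9.09 and 1.69 CPM with BAPN and at 1.50, 3.51, 3.28 and 1.39 CPM with Vehicle. Its log2 fold change was 1.02 (SE 0.65; edgeR FDR = 0.187; exact permutation p = 0.143). For both genes 3 BAPN libraries lay above all Vehicle libraries and the remaining one lay among them.

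The summed CD3 chains were at 27.4, 23.8, 43.7 and 7.31 CPM in BAPN replicates 1 to 4 and at 5.85, 16.6, 13.5 and 4.92 CPM in Vehicle replicates 1 to 4. The CD3 sum was thus lowest among BAPN libraries in the 1 BAPN male. Among females, the 3 BAPN libraries were above both Vehicle libraries, and among males the BAPN library was between the 2 Vehicle libraries. The counts behind these sums were 350 to 1896 with BAPN and 103 to 336 with Vehicle. Without BAPN replicate 4 the log2 fold changes were 1.71 for Cd3e, 1.69 for Cd3g and 1.30 for Cd3d (edgeR FDR = 0.0578, 0.0622 and 0.0957). Without BAPN replicate 3, the highest library, they were 1.04 for Cd3e, 1.01 for Cd3g and 0.54 for Cd3d. With sex as a covariate Cd3e had a log2 fold change of 0.94 (edgeR FDR = 0.304).

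Cd2 (ENSRNOG00000015821), an adhesion and costimulatory receptor of T cells and NK cells, rose with BAPN. It was at 22.1, 14.0, 22.6 and 13.9 CPM in BAPN replicates 1 to 4 and at 7.21, 9.14, 4.76 and 6.74 CPM in Vehicle replicates 1 to 4. The lowest BAPN library was above the highest Vehicle library, and this held in females and in males. The means were 18.2 ± 4.88 and 6.96 ± 1.80 CPM (SD, n = 4 each), a fold of 2.61 and a log2 fold change of 1.38 (SE 0.31; edgeR FDR = 0.0138). The exact two-sided permutation test gave p = 0.0286, the smallest that 4 rats against 4 allow. BAPN replicate 4 was the lowest BAPN library, as for the CD3 chains, but for Cd2 it lay above the Vehicle range. In it 1.91 Cd2 reads were counted per CD3 read, against 0.518 to 0.808 in the other BAPN libraries and 0.352 to 1.37 in Vehicle libraries, a ratio chosen after its values were seen and given no test. Cd2 stayed below an FDR of 0.05 in edgeR with each library left out in turn (log2 fold change 1.24 to 1.54, highest FDR 0.0454) and with all libraries thinned to the smallest total (FDR = 0.0130). Among the 5 females its log2 fold change was 1.26 (edgeR FDR = 0.0864).

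Cd8a (ENSRNOG00000007178), the CD8 α chain of cytotoxic T cells and of rat NK cells, also rose with BAPN. It was at 24.1, 20.5, 24.0 and 15.9 CPM with BAPN and at 3.65, 12.2, 10.1 and 7.79 CPM with Vehicle. No Vehicle library reached the lowest BAPN library, which was again BAPN replicate 4. The means were 21.1 ± 3.88 and 8.42 ± 3.65 CPM (SD, n = 4 each), a fold of 2.51 and a log2 fold change of 1.33 (SE 0.33; edgeR FDR = 0.0281; exact permutation p = 0.0286). The edgeR call was lost without BAPN replicate 1 (FDR = 0.0566), BAPN replicate 2 (FDR = 0.0510), BAPN replicate 3 (FDR = 0.0719) or Vehicle replicate 4 (FDR = 0.0594). It was also lost with sex as a covariate (FDR = 0.0649) and among females alone (FDR = 0.121), while the log2 fold change was between 1.08 and 1.55 in every setting. Equal library totals left it at an FDR of 0.0275.

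Cd8b (ENSRNOG00000007129) encodes the CD8 β chain, which pairs with the α chain on most cytotoxic T cells. It was at 11.3, 10.4, 10.9 and 8.22 CPM with BAPN and at 4.12, 10.1, 6.82 and 4.92 CPM with Vehicle. Vehicle replicate 2 was above BAPN replicate 4, and the other Vehicle libraries were below all BAPN libraries. The log2 fold change was 0.65 (SE 0.27; edgeR FDR = 0.131; exact permutation p = 0.0571). Without Vehicle replicate 2 it was 0.95 (edgeR FDR = 0.0313).

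The 2 CD8 chains were counted in different proportion in the groups. There were 2.13, 1.98, 2.20 and 1.93 Cd8a reads per Cd8b read in BAPN replicates 1 to 4 and 0.886, 1.20, 1.48 and 1.58 in Vehicle replicates 1 to 4, so the groups did not overlap. This ratio was chosen after its values were seen, and it was given no test. It is a ratio of reads and not of molecules, since gene lengths were not used.

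Cd4 (ENSRNOG00000016294), the coreceptor of helper T cells, which rat macrophages also express, showed no such pattern. It was at 347.9, 285, 299 and 404 CPM with BAPN and at 344.8, 454, 335 and 268 CPM with Vehicle. The highest and the lowest of the 8 libraries were both Vehicle libraries. The means were 334 ± 54.2 and 350.4 ± 77.3 CPM (SD, n = 4 each), and the log2 fold change of -0.07 (SE 0.19) did not pass the edgeR test (FDR = 0.811; exact permutation p = 0.771). Its sign turned without Vehicle replicate 2, where it was 0.08.

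Within each library, Cd4 was set against the CD3 chains. The log2 ratio of Cd4 to the summed CD3 chains was 3.67, 3.58, 2.77 and 5.79 in BAPN replicates 1 to 4 and 5.88, 4.77, 4.63 and 5.76 in Vehicle replicates 1 to 4. BAPN replicate 4 was level with the highest Vehicle libraries and the other BAPN libraries were below all of them. The means were 3.95 ± 1.29 and 5.26 ± 0.65 (SD, n = 4 each), and the difference of -1.31 did not pass the exact two-sided permutation test (p = 0.143). Without BAPN replicate 4 the difference was -1.92 (exact permutation p = 0.0286, the smallest that 3 libraries against 4 allow).

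The level of Cd4 was also compared with that of macrophage markers, after the group means were removed from each measure. Over the 8 libraries, log2 Cd4 and the log2 sum of 15 macrophage markers had r = 0.80 (exact permutation p = 0.0417, adjusted over 2 relations 0.0833) and Spearman's rho = 0.86 (p = 0.0104, adjusted 0.0208). Without Vehicle replicates 2 and 4, which were farthest from the median of the centred marker sum, r was 0.43, so the relation rests on those libraries. Log2 Cd4 and the log2 CD3 sum had r = 0.02 (exact permutation p = 0.950, adjusted 0.950) and rho = 0.10 (p = 0.833, adjusted 0.833), and r was 0.22 without BAPN replicate 4 and Vehicle replicate 4. The difference between the relations was not tested.

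**Figure D2:**
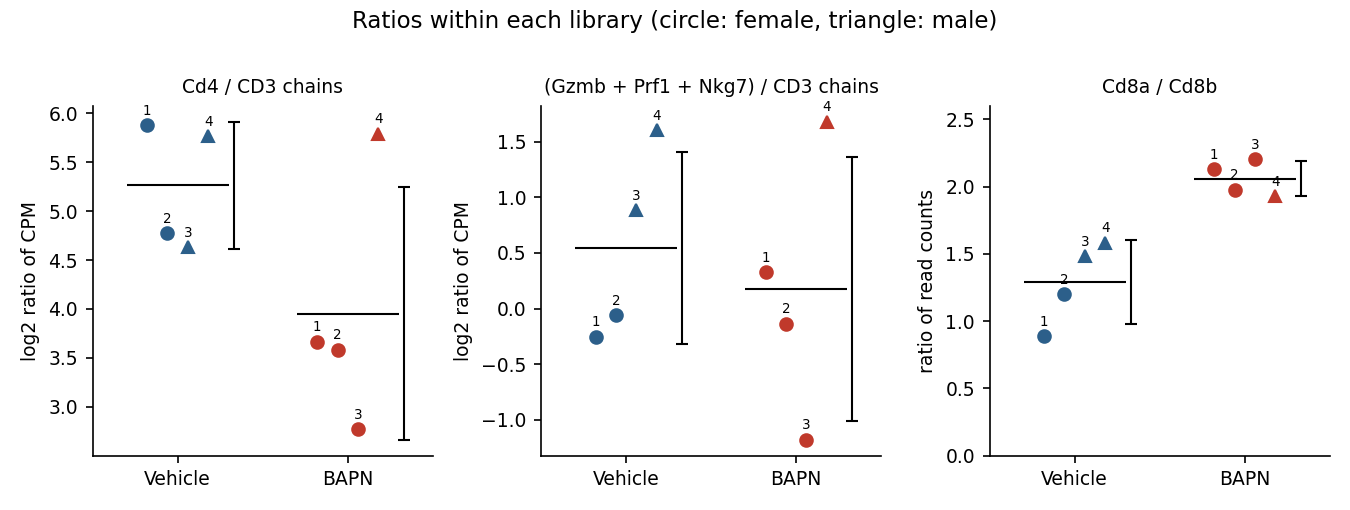
Ratios within each library, with Vehicle in blue, BAPN in red, females as circles, males as triangles, the group mean as a line and the SD as a bar. On the left and in the middle are log2 ratios of CPM to the summed CD3 chains and on the right the ratio of Cd8a to Cd8b reads, where the BAPN libraries lie between 1.93 and 2.20 and the Vehicle libraries between 0.886 and 1.58.

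The cytotoxic genes did not pass the test. Prf1 (ENSRNOG00000000562), which encodes the pore-forming protein perforin, was at 21.9, 14.3, 12.2 and 14.8 CPM with BAPN and at 3.89, 10.6, 16.6 and 8.69 CPM with Vehicle. Vehicle replicate 3 was above all but 1 of the BAPN libraries. The means were 15.8 ± 4.23 and 9.94 ± 5.25 CPM (SD, n = 4 each), with a log2 fold change of 0.67 (SE 0.37; edgeR FDR = 0.234; exact permutation p = 0.143).

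Nkg7 (ENSRNOG00000017749) encodes a membrane protein of cytotoxic granules. It was at 12.5, 7.38, 7.15 and 8.60 CPM with BAPN and at 1.03, 5.34, 8.33 and 6.26 CPM with Vehicle. As for Prf1, BAPN replicate 1 was highest and Vehicle replicate 1 lowest, and Vehicle replicate 3 was within the BAPN range. The log2 fold change was 0.76 (SE 0.51; edgeR FDR = 0.294; exact permutation p = 0.0857). Of these 2 tested genes, edgeR and DESeq2 each called 0, and 0 had an unadjusted p below 0.05 in edgeR.

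Gzmb (ENSRNOG00000045973), the gene of granzyme B, had 0 counts in all 8 libraries. A count of 0 allows up to 3 counts, or 0.0589 to 0.0689 CPM in the BAPN libraries and 0.126 to 0.148 CPM in the Vehicle libraries, and this covers counting error only. The rat genome holds several near-identical granzyme genes, and how reads shared among them were counted is not given in the sources used here, so the 0 applies to reads assigned to this gene. Of its close relatives, which were looked at after the 0 was seen, Gzmbl2 had 30, 64, 45 and 65 counts in BAPN replicates 1 to 4 and 0, 0, 9 and 12 in Vehicle replicates 1 to 4. Gzmf had 27 counts over the BAPN libraries and 3 over the Vehicle libraries, and Gzmbl1 and Gzmc had 0 in every library. These counts are not scaled for library size, which was larger in every BAPN library than in any Vehicle library. None of these genes had enough counts to be tested.

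Against the CD3 chains, the summed cytotoxic genes had log2 ratios of 0.33, -0.14, -1.18 and 1.68 in BAPN replicates 1 to 4 and of -0.25, -0.06, 0.88 and 1.60 in Vehicle replicates 1 to 4. The ratios spread as widely inside each group as between them. The difference in means was -0.37 (exact two-sided permutation test, p = 0.657), and it was 0.08 without BAPN replicate 3. In each group the male libraries had the highest ratios.

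Between rats of a group, the genes did not all vary together. Against the group-centred CD3 sum over 8 libraries, which holds the CD3 chains themselves, r was 0.98 to 0.99 for Cd3d, Cd3e and Cd3g. For the other genes r was 0.78 for Cd8b, 0.69 for Cd8a, 0.43 for Cd2, 0.36 for Prf1, 0.26 for Nkg7 and 0.02 for Cd4. Outside the 10 genes, the tested genes with an established symbol most like the CD3 sum were Ppm1d (r = 0.99), Ercc2 (r = 0.99), Hgh1 (r = 0.97), Phf7 (r = 0.97) and Asf1b (r = 0.97). They were found among the 11682 tested genes with 8 points each, after genes with no symbol or a provisional name were set aside. Over the 8 libraries Ppm1d was at 14.6 to 20.9 CPM and Asf1b at 4.49 to 9.73 CPM, and none of the 5 was called by edgeR (FDR = 0.167 to 0.797).

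The kinases, adaptors and costimulatory receptors that act with the T cell receptor were mostly above 0 in fold change. Of 14 tested genes in a list of 20, 13 had a log2 fold change above 0, with a median of 0.61. EdgeR called 1 of the 14, Lcp2, an adaptor of T cells that macrophages and other myeloid cells also use, which rose by 0.49 on the log2 scale (FDR = 0.0459). Lcp2 was at 176, 164, 177 and 185 CPM with BAPN and at 117, 158, 124 and 99.6 CPM with Vehicle, and its call stayed in 1 of 8 fits that each left out a library and was lost with sex as a covariate (FDR = 0.0865) and with equal library totals (FDR = 0.0518). The zeta chain Cd247, which signals with CD3, had a log2 fold change of 0.61 (FDR = 0.374). DESeq2 called 5 of the 14 higher, and these were, named after their values were seen, Lcp2, the cytoplasmic kinases Lck and Zap70, and the surface receptors Cd27 and Cd96.

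**Figure D3:**
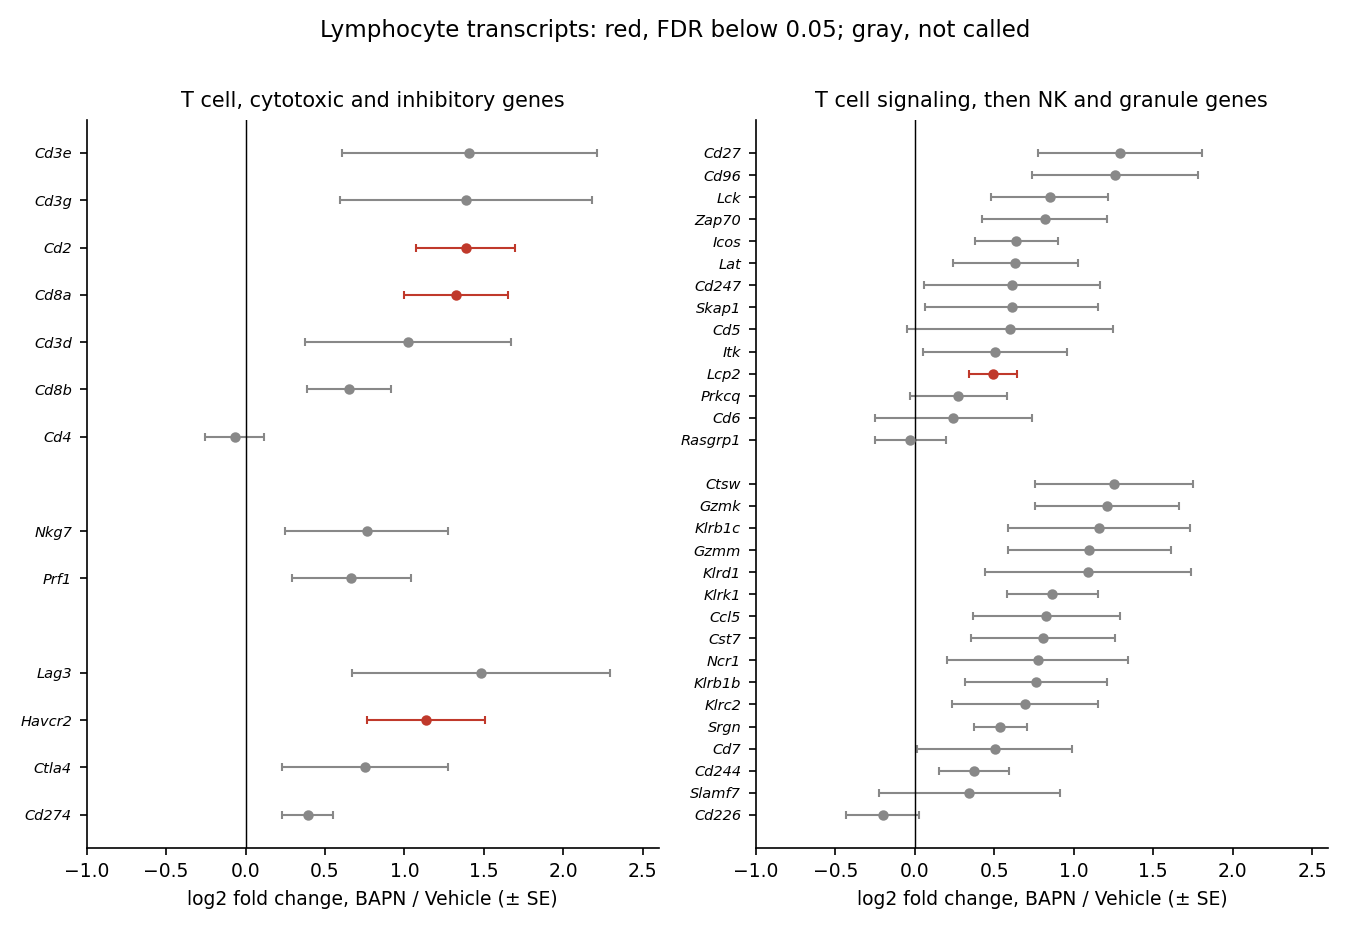
Log2 fold change of BAPN over Vehicle with its SE for each tested gene, with the CD3 chains, Cd2, the coreceptors, the cytotoxic genes and the inhibitory receptors on the left and T cell signaling genes above NK and granule genes on the right. Red points passed an FDR of 0.05 in edgeR (Cd2, Cd8a, Havcr2 and Lcp2), and most gray points lie above 0 with an SE that is large beside the change.

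Receptors and granule proteins of NK cells and cytotoxic T cells were tested for 16 of 27 listed genes. EdgeR called 0 of them, 5 had an unadjusted p below 0.05, 15 had a log2 fold change above 0, and the median was 0.79. DESeq2 called 4 of the 16 higher, which were Gzmk, the receptor gene Klrk1, the cathepsin gene Ctsw and the granule proteoglycan gene Srgn, named after their values were seen (edgeR FDR = 0.0512 to 0.0568).

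Among 4 tested inhibitory receptors and ligands, all 4 were above 0, with a median of 0.94. EdgeR called Havcr2, the gene of TIM-3, which T cells, NK cells and macrophages express (log2 fold change 1.14, SE 0.37, FDR = 0.0365). Havcr2 averaged 2.20 CPM with Vehicle and passed the base mean filter through its BAPN counts, as genes low with Vehicle can. The direction of the 4 therefore supports nothing by itself. Havcr2 was at 3.25 to 6.86 CPM with BAPN and at 1.72 to 2.67 CPM with Vehicle, without overlap, and its call stayed in 2 of 8 fits with a library left out and was lost with sex as a covariate (FDR = 0.0661) and with equal library totals (FDR = 0.0568).

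Of 9 tested lymphocyte transcription factors, edgeR called 1, Tox, a regulator of T cell development and exhaustion, and it was lower with BAPN. It was at 4.73, 5.19, 5.88 and 3.24 CPM with BAPN and at 8.85, 9.84, 10.9 and 14.3 CPM with Vehicle. The log2 fold change was -1.21 (SE 0.24; FDR = 0.0170). Tox thus differed in the direction opposite to Cd2 and Cd8a, without overlap, and it was called in 8 of 8 fits with a library left out but not among females alone (FDR = 0.123). Bulk RNA does not tell which cells held the Tox transcripts. The share of all tested genes lower with BAPN without overlap is not given here. The median of the 9 was 0.14, and 6 were above 0.

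Cytokine and homing receptors were tested for 12 genes of 14. Il15ra, a receptor chain that presents interleukin 15, rose by 0.97 on the log2 scale (FDR = 0.0416). S1pr1, a receptor by which lymphocytes leave lymphoid tissue and which endothelial cells also express, fell by 0.74 on the log2 scale (FDR = 0.0194). In this list 11 of 12 genes were above 0, with a median of 0.56. With a library left out, edgeR called Il15ra in 1 of 8 fits and S1pr1 in 7, and sex as a covariate (FDR = 0.0833) and equal library totals (FDR = 0.0525) each ended the call of Il15ra.

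Some transcripts that leukocytes share, T cells included, and some macrophage markers passed the test as well, while the summed levels overlapped between the groups, and their part in the differences above was not tested. Among pan-leukocyte genes, edgeR called 2 of 11 higher, Cd53 (log2 fold change 1.06, FDR = 0.0376) and Ptpn6 (log2 fold change 0.73, FDR = 0.0170), while Ptprc, the gene of CD45, had a log2 fold change of 0.45 (FDR = 0.189). The summed pan-leukocyte level was 3879 to 5993 CPM with BAPN and 1887 to 4543 CPM with Vehicle. Among macrophage markers, edgeR called 2 of 14 higher, Aif1 (log2 fold change 0.80, FDR = 0.0155) and Fcgr1a (log2 fold change 0.80, FDR = 0.0474), while Cd68 had a log2 fold change of 0.54 (FDR = 0.261). The 15 macrophage markers, of which Marco was at 0 in all libraries, summed to 4568 to 5890 CPM with BAPN and to 3046 to 4975 CPM with Vehicle. With a library left out, Ptpn6 and Aif1 were called in 7 of 8 fits, Cd53 in 2 and Fcgr1a in 1, and sex as a covariate ended the calls of Cd53 (FDR = 0.0661) and Fcgr1a (FDR = 0.0814).

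Markers of B cells and plasma cells were high and low in the same BAPN libraries as the CD3 chains. The 10 markers summed to 168, 218, 244.5 and 9.23 CPM in BAPN replicates 1 to 4 and to 17.9, 25.4, 46.1 and 14.9 CPM in Vehicle replicates 1 to 4. BAPN replicates 1 to 3 were above all Vehicle libraries, and BAPN replicate 4 was the lowest of the 8. Of 4 tested markers edgeR called 2 higher, Mzb1 of plasma cells (log2 fold change 4.59, SE 3.67, FDR = 0.0346) and Cd79b of the B cell receptor (log2 fold change 2.55, SE 1.31, FDR = 0.0458), and all 4 were above 0. Mzb1 and Cd79b averaged 0.87 and 0.91 CPM with Vehicle and passed the base mean filter through their BAPN counts. The filter thus favoured genes higher with BAPN, and the direction of the 4 supports nothing by itself. With a library left out, Mzb1 was called in 1 of 8 fits and Cd79b in 2, and the log2 fold changes were largest without Vehicle replicate 3 (5.22 and 3.23). Sex as a covariate ended both edgeR calls (FDR = 0.225 and 0.186), and the low BAPN library was the 1 BAPN male. Among females alone both were called (log2 fold change 5.78 and 3.54, FDR = 0.0387 and 0.0462).

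**Figure D4:**
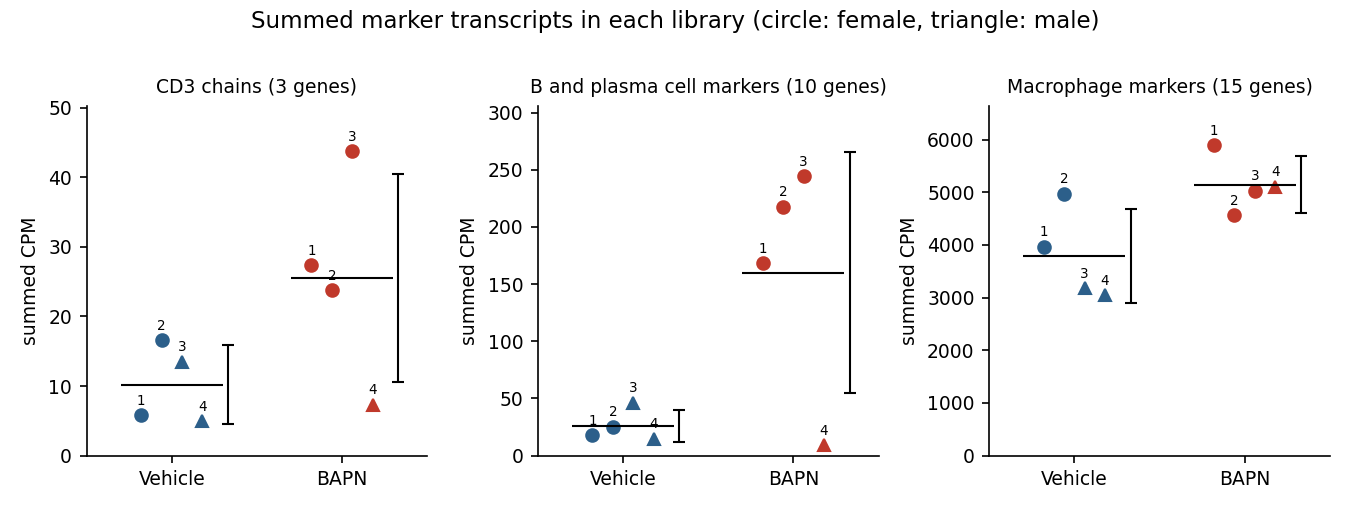
Summed CPM of the CD3 chains, of 10 B cell and plasma cell markers and of 15 macrophage markers in each library, with Vehicle in blue, BAPN in red, females as circles, males as triangles, the group mean as a line and the SD as a bar. BAPN replicate 4 is low for the CD3 chains (7.31 CPM) and for the B cell and plasma cell markers (9.23 CPM) but not for the macrophage markers.

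Several markers of the vessel wall fell with BAPN, beside 1081 of all 11682 tested genes that edgeR called lower. EdgeR called 4 of 6 smooth muscle markers lower, Myh11 (log2 fold change -1.60), Cnn1 (-1.60), Smtn (-0.95) and Des (-0.68), with FDR values of 0.0148 to 0.0295. It called 3 of 5 endothelial markers lower, Vwf (-1.99), Tek (-1.24) and Cldn5 (-0.55), with FDR values of 0.0089 to 0.0497. The 6 smooth muscle markers summed to 1630 to 4153 CPM with BAPN and 3110 to 5852 CPM with Vehicle. The 5 endothelial markers matched by name, none of them at 0, summed to 214 to 391 CPM with BAPN and 512 to 1220 CPM with Vehicle, without overlap. With a library left out, Myh11 and Tek were called in 8 of 8 fits and the other wall markers in 2 to 4. Sex as a covariate ended the calls of Cnn1, Smtn, Des and Cldn5 (FDR = 0.0507 to 0.0692), and equal library totals that of Cldn5 (FDR = 0.0572). Vwf was at 768 CPM in Vehicle replicate 1 and between 106 and 269 CPM in Vehicle replicates 2 to 4. Without that library, which also had the highest endothelial sum, the log2 fold change of Vwf was -1.13 (FDR = 0.0670). CPM values are shares of a library, and the part of these differences in those of the lymphocyte genes was not tested.

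**Figure D5:**
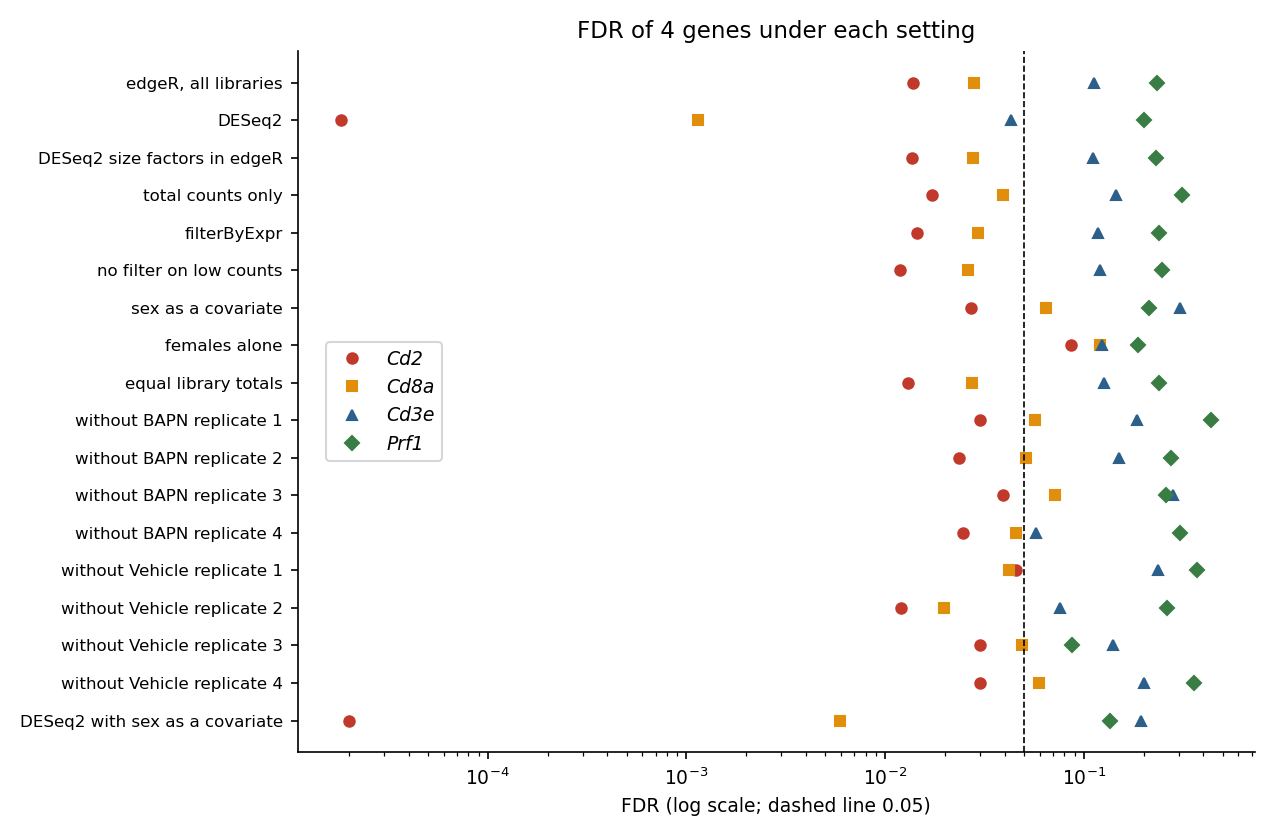
FDR of Cd2, Cd8a, Cd3e and Prf1 (log axis) in edgeR with all libraries and under other settings, with a dashed line at 0.05. Cd2 is right of the line among females alone, where its FDR is 0.0864, Cd8a crosses it in 6 of the settings shown, Cd3e is left of it in DESeq2 and Prf1 in no setting shown. The replicate block is not shown, and there neither Cd2 (FDR 0.0544) nor Cd8a (FDR 0.0659) was called.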

How the data were processed

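RNA from 8 outflow veins was sequenced after ribosomal RNA depletion (stranded total RNA libraries, NextSeq500). The authors deposited raw counts of reads per gene, 1 file per rat, without normalization. The submitters' processing notes name bcl2fastq 2.17, Trim Galore and STAR; the genome build, the counter and its strand setting are not given in the sources used here. Groups, replicate numbers and sex came from the sample labels. Every pair of libraries within a group differed by more than counting noise, so each was 1 replicate, and p-values measure the spread between these 8 rats.

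From the counts, edgeR 4.0.16 under R 4.3.3 (TMM, quasi-likelihood test, no covariates) tested every gene whose mean count, scaled by DESeq2 1.42.0 size factors, reached 100. The minimum follows the study's methods, which used DESeq and state no covariates. The mean was taken over both groups, so some genes low with Vehicle passed through their BAPN counts, among them Cd3d, Cd3g, Havcr2, Mzb1 and Cd79b. Limma-voom (limma 3.58.1) gave the SE, and the Benjamini-Hochberg adjustment ran over 11682 genes. Exact permutation tests of groups went through 70 arrangements (35 for 3 against 4 libraries) of log2 CPM with a prior count of 2 (ratios used none), and those of the relations through 576 arrangements within groups. The steps were tested on simulated counts for BAPN against Vehicle over 11682 genes, where 172 of 200 genes changed by 1.5 on the log2 scale were recovered, with 8 false calls. The lowest library total was 19548203 counts, and genes with few reads, such as Nkg7 with 22 in 1 library, carry counting error beside the spread between rats.

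The 10 genes and the lists were chosen with earlier results of these data known, so list counts support nothing by themselves and no set test was run. Named genes are the 10, the called genes of each list (up to 4 with the largest change), Ptprc, Cd68 and Cd247, and the 5 genes with an established symbol most like the CD3 sum. Pf4 and Fabp4 were named after their values were seen. Zfp683, Klrb1a, Fasl, Il7r, Pecam1 and Myh1 were not matched by name. 1 called gene of the lists is not reported here. Alternatives were DESeq2, its size factors in edgeR, total counts, filterByExpr, no filter, equal totals, sex as a covariate, a block for the replicate number, females alone and each library left out. DESeq2 with sex as a covariate was added after seeing the data. Promoters came from RefSeq (GRCr8).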

Additional observations from a re-analysis of the deposited data

How the results depend on the processing

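The number of genes called between BAPN and Vehicle was 1957 in edgeR with all libraries. It was 3202 in DESeq2 (2515 with sex as a covariate there), 930 with sex as a covariate and 89 among females alone, and 397 to 2215 with 1 library left out, lowest without Vehicle replicate 1. Of the 10 lymphocyte genes 2 were called, 1 with sex as a covariate, 0 among females alone, and 1 to 3 with 1 library left out. The females were 3 against 2 rats, so fewer samples were compared. The same replicate numbers in both groups did not pair the rats (correlations of same-numbered deviations 0.09, -0.26, 0.27 and -0.14). With the replicate block, 556 genes and 0 of the 10 were called (Cd2 FDR = 0.0544, Cd8a FDR = 0.0659; Tox FDR = 0.0625), and only replicate number 3 matched its own number best.

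The difference in the log2 ratio of Cd4 to the CD3 chains was -1.92 to -0.92 with 1 library left out, and passed the exact permutation test only without BAPN replicate 4 (-1.92). That of the cytotoxic genes was -0.87 to 0.080, above 0 without BAPN replicate 3 only. The log2 fold change of Cd4 was -0.18 (without BAPN replicate 4) to 0.081 (without Vehicle replicate 2) with 1 library left out and -0.36 among females alone, where that of Cd68 was -0.055. The causes were not tested. Prf1, Nkg7, Cd3d and Cd3g kept their direction and were above an FDR of 0.05 in all 18 alternatives. The size of the change moved for Prf1 and Nkg7. Without Vehicle replicate 1 their log2 fold changes were 0.40 and 0.42, and among females alone 1.16 and 1.50.

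Among females alone, Mzb1, Cd79b and Plin1 were the only called genes named from the lists that stayed called in edgeR. Of the markers of other cells, Itga2b and Plin1 were called in 1 of 8 fits with a library left out. The lowest counts of the CD3 chains were in the Vehicle libraries, where Cd3g had 23 to 87 reads.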

Other observations

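Other cell types that a fistula vein can hold were measured beside the lymphocyte genes. Of 2 tested neutrophil markers edgeR and DESeq2 called 0, and 0 had an unadjusted p below 0.05. Of 5 tested red cell and platelet markers edgeR called 1, Itga2b, lower with BAPN (log2 fold change -1.22, FDR = 0.0401), as did DESeq2. The platelet marker Pf4 went the other way (log2 fold change 0.63, edgeR FDR = 0.114). Of 4 tested adipocyte markers edgeR called 1, Plin1, lower with BAPN (log2 fold change -2.13, FDR = 0.0443; 0.0516 with equal library totals), and DESeq2 called 3 lower, Plin1, Adipoq and Cidec. The remaining adipocyte marker, Fabp4, went the other way, with means of 1690 CPM with BAPN and 1040 CPM with Vehicle (log2 fold change 0.70, edgeR FDR = 0.269). Of 2 skeletal muscle markers edgeR called 0 and DESeq2 called Acta1 lower, and 1 had an unadjusted p below 0.05 in edgeR.

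The proportions among the CD3 chains themselves differed between libraries. There were 2.26 to 3.92 Cd3e reads per Cd3d read with BAPN and 1.48 to 2.51 with Vehicle, which overlapped. Prf1 reads per Nkg7 read were 1.70 to 1.93 with BAPN and 1.39 to 3.77 with Vehicle, where Vehicle replicate 1, with 22 Nkg7 reads, had the highest value. These ratios were chosen after seeing the data and were given no test.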
